A study of Mus musculus with 33 samples.

Results

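The genes described here are the 6 H3K9 methyltransferase genes Setdb1, Setdb2, Suv39h1, Suv39h2, Ehmt1 (also called Glp) and Ehmt2 (also called G9a). They were chosen by name and not by a cut on any measured value, though with earlier results of these data known. They are 6 of the 55487 genes counted in the deposited tables. Their mRNA was followed by RNA-seq in 33 libraries of C57BL/6 mouse embryonic stem cells (ESCs), 3 for each of 11 conditions. The study made ESCs that lack heterochromatin protein 1 (HP1), in order to learn what HP1 does in these cells, and set them beside ESCs that lack Setdb1. The single mutants were Hp1αΔ/Δ (Cbx5 targeted), Hp1βΔ/Δ (Cbx1 targeted) and Hp1γΔ/Δ (Cbx3 targeted) ESCs, and the double mutants were Hp1α/βΔ/Δ, Hp1α/γΔ/Δ and Hp1β/γΔ/Δ ESCs. Cells of the triple mutant, Hp1α/β/γΔ/Δ, were made per the study's methods by transfection of Cre into Hp1α/βΔ/Δ ESCs with a floxed Hp1γ, and that floxed parent line is not among the groups used here. Setdb1F/F ESCs, in which loxP sites flank part of Setdb1, were the control of Setdb1Δ/Δ cells, made from such ESCs with Cre. The labels hold a pair of sets with the wild-type genotype, here called set A (titled NK) and set B (titled WT). The tables pair set A with each single mutant, with Hp1α/βΔ/Δ ESCs and with Hp1α/β/γΔ/Δ cells, and set B with Hp1α/γΔ/Δ and Hp1β/γΔ/Δ ESCs. The labels do not say how many clones each genotype stands for, so the p values given here measure the spread between libraries of a group.

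Methylation of lysine 9 of histone H3 (H3K9) marks silent chromatin. SUV39H1 and SUV39H2 are known for trimethylation at pericentromeric heterochromatin, EHMT1 and EHMT2 act as a heterodimer that places mono- and dimethylation in euchromatin, and SETDB1 trimethylates H3K9 at endogenous retroviruses and other targets to which TRIM28 recruits it. SETDB2 is a related SET domain protein. HP1 proteins bind methylated H3K9 through their chromodomain and in turn bind methyltransferases, and Setdb1 is known to be needed for the identity of ESCs.

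Total counts per library ran from 17330992 to 25743193. Markers of ESCs (Pou5f1, Nanog, Sox2, Zfp42, Esrrb, Dppa5a, Klf4, Tdgf1) summed to between 1407 and 7976 CPM (counts relative to library size, scaled by edgeR's TMM method) in a library, against 1.76 to 56.0 CPM for 8 markers of feeder fibroblasts, the layer on which the ESCs were grown. Each targeted HP1 gene was lower than in its control in each mutant that lacks it, with log2 fold changes from −3.27 for Cbx1 to −0.81 for Cbx5, both in Hp1α/β/γΔ/Δ cells. Cbx5 was higher in Hp1α/β/γΔ/Δ cells (278 to 287 CPM) than in Hp1α/βΔ/Δ (200 to 207 CPM) and Hp1αΔ/Δ ESCs (175 to 180 CPM). The cause of this was not tested. In Hp1α/γΔ/Δ ESCs, replicate 2 stood apart from the other libraries of its group, with 85.1 CPM of Cbx5 against 181 and 182 CPM. Across genes, the chi-square of counts per degree of freedom was 121.6 and 113.9 between it and replicates 1 and 3. Between replicates 1 and 3 it was 2.53. The log2 fold changes of genes named in these ESCs are given with and without replicate 2. In bulk libraries, fewer cells that carry an mRNA and less of the mRNA per cell cannot be told apart.

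Setdb1 (ENSMUSG00000015697) lies on the minus strand of chromosome 3 of GRCm38, from 95323525 to 95357202. Cre removes its exons 11 to 13, per the study's methods. In the transcript Setdb1-202, which has 22 exons and 4622 bases, these exons hold 997 bases, or 21.6%, so that 78.4% of the transcript can still give reads in Setdb1Δ/Δ cells. The study's RT-PCR primers flank the deleted exons and are shown with all bases in lower case, since they show what a count over the whole gene cannot separate:
Setdb1 forward, exon 10: gatgacaaaagatgtgagtg
Setdb1 reverse, exon 14: gtgggcagacactcttctag
Between them lie 1241 bases of the full transcript, which become 244 bases once exons 11 to 13 are gone. The deposited counts are per gene, and exons cannot be told apart in them.

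Setdb2 (ENSMUSG00000071350) is on the minus strand of chromosome 14, from 59402009 to 59440884, and Suv39h1 (ENSMUSG00000039231) on that of chromosome X, from 8061171 to 8074760. Suv39h2 (ENSMUSG00000026646) and Ehmt1 (ENSMUSG00000036893) share the minus strand of chromosome 2, from 3455815 to 3475031 and from 24789928 to 24919614. Ehmt2 (ENSMUSG00000013787) is on the plus strand of chromosome 17, from 34898469 to 34914052. Of the 6 genes, Ehmt2 alone overlaps no other gene of GENCODE M21. The antisense gene Gm14820 runs across Suv39h1 from 8042943 to 8074619 on the plus strand and shares 767 of 5270 exonic bases (14.6%) with it. Dclre1c shares 8.10% of the exonic bases of Suv39h2, and the other overlaps cover 3.63% or less of a member's exons. The labels and the study name different library kits, one of them stranded, and the strand setting of the counting is not given in the sources used here, so reads from overlapping antisense exons cannot be assigned with certainty.

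In wild-type ESCs, Ehmt2 was the most abundant of the 6 mRNAs and Setdb2 the least. As TPM, the deposited expression measure that allows for transcript length, Ehmt2 had 95.3, 99.7 and 101 TPM in the 3 libraries of set A. Ehmt1 and Setdb1 followed with 59.7 ± 2.12 and 59.2 ± 2.05 TPM (SD, n = 3), and their libraries overlapped. Suv39h1 and Suv39h2 had 20.7 ± 0.998 and 19.7 ± 0.81 TPM (SD, n = 3), and their libraries overlapped too. Setdb2 came last with 8.41 ± 1.44 TPM (SD, n = 3). In set B the order was the same except that Setdb1, at 55.9 ± 0.57 TPM, lay above Ehmt1, at 49.3 ± 1.22 TPM (SD, n = 3), without overlap. Ehmt2 thus gave 37.0% of the summed TPM of the 6 genes in set A and 39.7% in set B. Raw counts of the 6 genes were high enough in every library for each of them to pass the filter on low counts in every comparison.

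**Figure D1:**
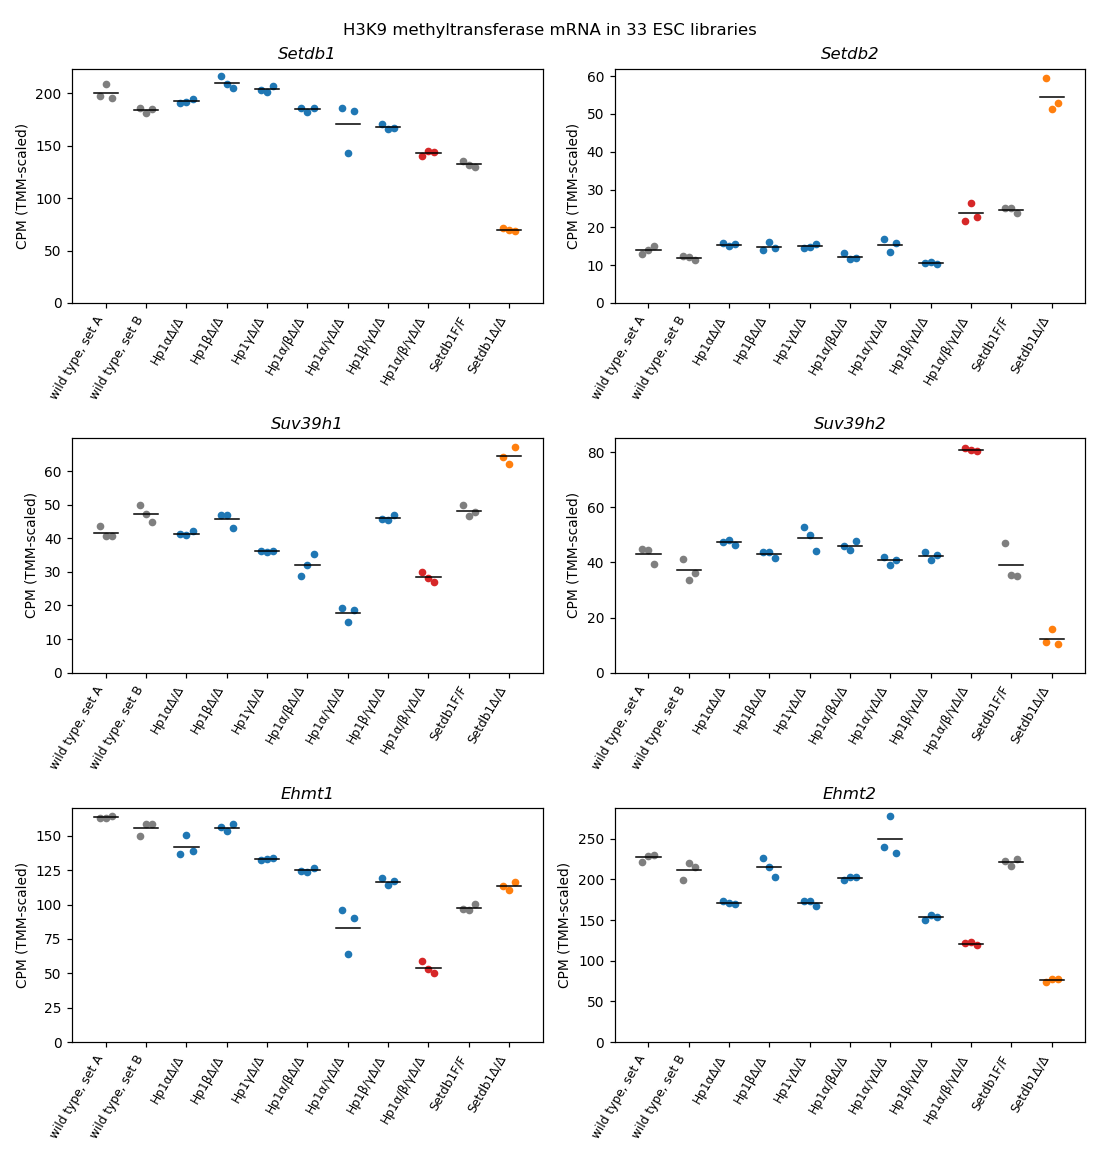
TMM-scaled CPM (linear axes from 0) of the 6 H3K9 methyltransferase genes in 33 libraries, 1 panel a gene. Points are libraries (grey for the wild-type sets and Setdb1F/F, blue for single and double Hp1 mutants, red for Hp1α/β/γΔ/Δ and orange for Setdb1Δ/Δ) and black lines are means of 3. Setdb2 and Suv39h2 in Hp1α/β/γΔ/Δ cells lie above every wild-type library, and Setdb1, Ehmt1 and Ehmt2 there lie below every wild-type library.

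In Hp1α/β/γΔ/Δ cells, which lack Hp1α, Hp1β and Hp1γ, the methyltransferases did not move as a group. Without the floxed parent line, HP1 loss and Cre transfection cannot be told apart in these cells. Ehmt1, Ehmt2, Suv39h1 and Setdb1 fell, and Suv39h2 and Setdb2 rose. All 6 passed an adjusted p under 0.05 against wild-type set A, and so did 81.6% of the 17504 genes tested, 41.7% with a rise and 39.9% with a fall. Only Ehmt1 also passed an absolute log2 fold change over 1, the study's threshold for a deregulated gene, which 42.3% of all genes passed. The median log2 fold change of the 6 genes was −0.55, against 0.03 over all genes tested. All adjusted p values are from the quasi-likelihood test of edgeR, adjusted by Benjamini-Hochberg over all genes tested, and a log2 fold change is one of counts unless TPM is named.

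On the count scale the partners of the heterodimer moved most. On log2(TPM + 1) Suv39h2 had the largest value (1.27, against −1.14 for Ehmt1). The median of all genes was 0.31 there, so that rises read larger and falls smaller on that scale. Ehmt1 had 58.6, 53.5 and 50.4 CPM in Hp1α/β/γΔ/Δ cells and 163, 163 and 165 CPM in wild-type set A. The groups did not overlap, and the level in the mutant was 0.324 of that in wild type (log2 fold change −1.62, standard error 0.046, adjusted p = 9.44e-17). Ehmt2 had 122, 123 and 119 CPM against 222, 229 and 231 CPM. It fell to 0.523 of its wild-type level, a log2 fold change of −0.94 (standard error 0.031). Ehmt1 thus fell further than Ehmt2, a difference between genes that was not tested.

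Setdb1 had 140, 145 and 144 CPM in Hp1α/β/γΔ/Δ cells and 197, 209 and 196 CPM in wild-type set A. Every mutant library lay below every wild-type library, and the change was −0.52 on the log2 scale (standard error 0.032, adjusted p = 2.22e-11). Setdb2 moved in the other direction, with 21.8, 26.5 and 22.8 CPM against 12.9, 13.9 and 15.2 CPM. Its log2 fold change was 0.73 (standard error 0.092), and the groups did not overlap.

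The 2 Suv39h genes also moved apart. Suv39h2 had 81.6, 81.0 and 80.5 CPM in Hp1α/β/γΔ/Δ cells, against 44.7, 44.7 and 39.4 CPM in wild-type set A. It was 1.85 times its wild-type level (log2 fold change 0.89, standard error 0.053, adjusted p = 9.15e-12). Suv39h1 had 30.0, 28.1 and 27.0 CPM against 43.8, 40.7 and 40.7 CPM, a log2 fold change of −0.58 (standard error 0.061). In each of these genes the groups did not overlap. On the TPM scale, where the median of all genes lay 0.28 higher in this comparison than on the count scale, Suv39h1 had a change of −0.19 on log2(TPM + 1) that did not pass the test (limma, adjusted p = 0.0523). The other 5 genes kept their direction and passed there, Setdb1 with −0.21 and Suv39h2 with 1.27.

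Markers of other cell states moved with these changes. The summed ESC markers were at 1407 to 1455 CPM in Hp1α/β/γΔ/Δ cells and at 3389 to 3429 CPM in wild-type set A. The endoderm markers Gata4, Gata6, Sox17 and Foxa2 were at 14.2 to 14.6 against 1.29 to 1.48 CPM in sum, with none of them at 0, and the feeder markers at 10.9 to 12.7 against 26.7 to 29.0 CPM. Of 18 genes of the cell cycle, 10 fell and 6 rose. The part of these shifts in the methyltransferase values was not tested.

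The stretches around the transcription start of genes that moved in opposite directions are shown here side by side. These are the RefSeq promoters (GRCm38.p6, 250 bases before to 50 bases after the start) of Setdb2 and Suv39h2, which rose in Hp1α/β/γΔ/Δ cells, and of Ehmt1 and Ehmt2 (the first of 2 listed starts), which fell. Capitals mark the letters GGGCGG (GC box), ATTGG (inverted CCAAT box), CCGGAAG (ETS core), CACGTG (E-box) and AAGATGG (YY1-type) on either strand, none of which overlapped another:
Setdb2, chr14:59440831-59441130, minus strand: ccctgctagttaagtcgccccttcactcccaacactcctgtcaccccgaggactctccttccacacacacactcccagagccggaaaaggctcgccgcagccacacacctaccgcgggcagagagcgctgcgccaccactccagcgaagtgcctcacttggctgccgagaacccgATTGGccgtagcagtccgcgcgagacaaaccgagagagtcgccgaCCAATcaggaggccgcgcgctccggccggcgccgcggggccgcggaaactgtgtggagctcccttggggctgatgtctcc
Suv39h2, chr2:3474937-3475236, minus strand: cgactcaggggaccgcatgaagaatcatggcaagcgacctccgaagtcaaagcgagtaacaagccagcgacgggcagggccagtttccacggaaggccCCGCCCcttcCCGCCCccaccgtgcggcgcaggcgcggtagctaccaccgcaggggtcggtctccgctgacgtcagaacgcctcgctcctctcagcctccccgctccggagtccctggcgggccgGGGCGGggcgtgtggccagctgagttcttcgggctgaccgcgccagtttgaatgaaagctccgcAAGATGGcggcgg
Ehmt1, chr2:24919560-24919859, minus strand: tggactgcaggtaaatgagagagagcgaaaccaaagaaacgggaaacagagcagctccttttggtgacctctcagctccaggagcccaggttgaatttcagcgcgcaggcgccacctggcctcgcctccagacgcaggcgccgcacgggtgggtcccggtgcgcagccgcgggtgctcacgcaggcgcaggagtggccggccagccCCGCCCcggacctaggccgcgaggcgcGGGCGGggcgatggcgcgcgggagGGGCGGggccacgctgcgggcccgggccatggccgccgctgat
Ehmt2, chr17:34898224-34898523, plus strand: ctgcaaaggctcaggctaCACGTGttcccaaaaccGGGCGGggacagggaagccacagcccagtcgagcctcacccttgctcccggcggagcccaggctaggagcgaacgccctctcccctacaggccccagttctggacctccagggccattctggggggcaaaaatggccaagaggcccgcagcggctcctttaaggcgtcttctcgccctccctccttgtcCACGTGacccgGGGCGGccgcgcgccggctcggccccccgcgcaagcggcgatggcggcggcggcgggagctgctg
Setdb2 held 2 matches to ATTGG, which 37.4% of 32851 promoters of this length hold. Suv39h2 held 3 matches to GGGCGG and 1 to AAGATGG, letters found in 35.7% and 6.34% of all promoters. CCGGAAG, found in 8.86% of all promoters, was in none of these 4 stretches but matched 2 times in that of Setdb1. Ehmt1 held 3 matches to GGGCGG, and Ehmt2 held 2 of these and 2 of CACGTG (7.15% of all promoters). The 4 stretches held between 28 and 34 CpG dinucleotides, against a median of 7 over all promoters. Of the promoters not shown, that of Setdb1, which fell, held 15 CpG dinucleotides, those of Suv39h1, which fell as well, 37 and 15, and the second of Ehmt2 40. Of the motifs searched, none was found in both genes shown that rose and in neither that fell, or the other way round.

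The loss of Hp1γ on top of Hp1α and Hp1β was read against Hp1α/βΔ/Δ ESCs. Again Ehmt1 (log2 fold change −1.24), Ehmt2 (−0.77), Setdb1 (−0.40) and Suv39h1 (−0.21) fell and Setdb2 (0.92) and Suv39h2 (0.78) rose. All 6 passed, as did 80.6% of all genes tested (41.3% higher and 39.3% lower). Ehmt1 alone passed the fold threshold, with 41.4% of all genes. The change of Suv39h1 was the weakest, since its libraries overlapped (28.9, 32.1 and 35.4 CPM in Hp1α/βΔ/Δ ESCs). It was lost with DESeq2 (adjusted p = 0.0754) and without Hp1α/β/γΔ/Δ replicate 3 (0.0767) or Hp1α/βΔ/Δ replicate 3 (0.0782). On log2(TPM + 1) it turned to 0.15, which did not pass (limma, adjusted p = 0.208), and the fall of Setdb1 was lost there as well (−0.09, adjusted p = 0.0804).

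Whether Hp1γ loss acted differently with and without Hp1α and Hp1β was tested as an interaction over 12 libraries, in which 69.9% of 18036 genes passed. It passed for 5 of the 6 genes. The interaction was −0.93 for Ehmt1 (standard error 0.060, adjusted p = 4.17e-12), −0.41 for Setdb1 and −0.35 for Ehmt2, so that these fell further than the separate losses add up to on the log2 scale. It was 0.83 for Setdb2 and 0.60 for Suv39h2. For Suv39h1 it was 0.0011 (standard error 0.095) and did not pass, and its changes in Hp1γΔ/Δ and Hp1α/βΔ/Δ ESCs, −0.20 and −0.38, add up to the −0.58 of the triple mutant. Per the study, Hp1γ was lost shortly before sampling, through Cre, in the triple mutant and constitutively in Hp1γΔ/Δ ESCs. The presence of Hp1α and Hp1β, the time since Hp1γ loss and Cre transfection thus cannot be told apart in this test.

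**Figure D2:**
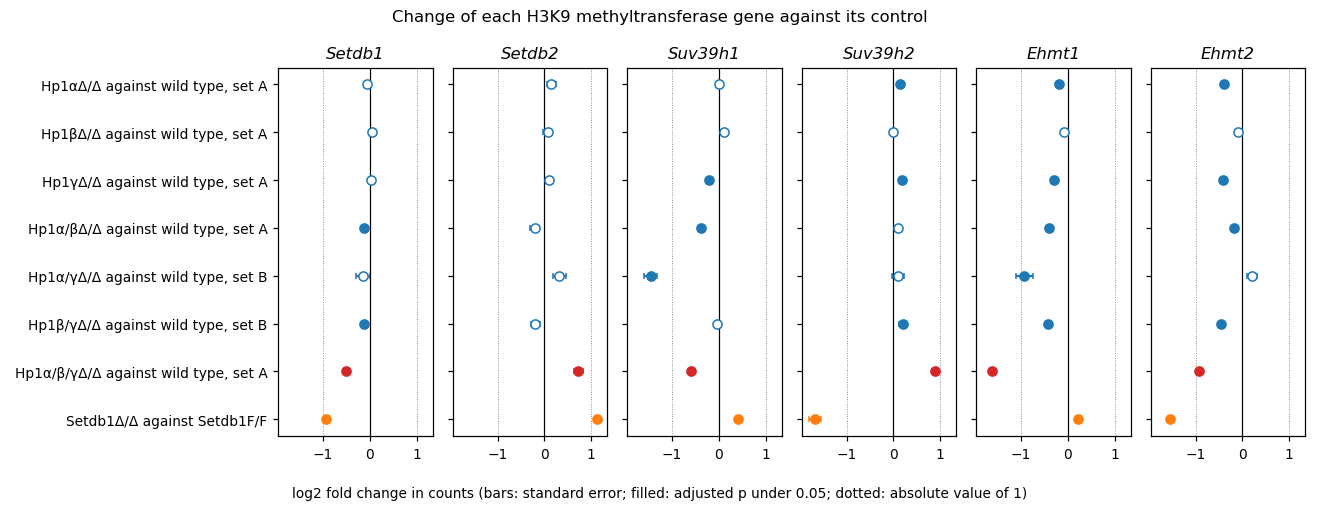
Log2 fold change in counts (x axis, bars are standard errors) of each H3K9 methyltransferase gene in 8 comparisons of a mutant with its control (rows), 1 panel a gene. Filled points have an adjusted p under 0.05 and dotted lines mark an absolute log2 fold change of 1. Ehmt1 lies below 0 in all 7 Hp1 mutants, and Suv39h2 lies at 0.89 in Hp1α/β/γΔ/Δ and at −1.68 in Setdb1Δ/Δ cells.

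Single Hp1 mutants showed small changes, and none of the 6 genes passed an absolute log2 fold change over 1, which 4.87% of all genes passed in Hp1αΔ/Δ, 9.1% in Hp1βΔ/Δ and 5.59% in Hp1γΔ/Δ ESCs. In Hp1αΔ/Δ ESCs, 3 of 6 passed an adjusted p under 0.05, against 45% of 15841 genes. Ehmt2 had 174, 171 and 170 CPM, below all 3 libraries of wild-type set A (log2 fold change −0.40, standard error 0.031, adjusted p = 1.98e-09). Ehmt1 fell by 0.20 on the log2 scale, a call lost against wild-type set B (−0.11, adjusted p = 0.0641) and on TPM (0.0745). Suv39h2 rose by 0.15 (adjusted p = 0.0353). This call was lost without Hp1αΔ/Δ replicate 1 (0.0736) or 2 (0.0839) or without wild-type set A replicate 3 (0.206). It was also lost on TPM (0.160) and in the joint fit of set A with all mutants paired with it (0.0560). In Hp1γΔ/Δ ESCs, 4 of 6 passed, against 46.7% of 15823 genes. Ehmt2 had 173, 174 and 168 CPM, again without overlap with set A, and a log2 fold change of −0.40. Ehmt1 and Suv39h1 fell by 0.30 and by 0.20. Suv39h2 rose by 0.19, with libraries that overlapped those of wild type, and this call was lost without Hp1γΔ/Δ replicate 1 (adjusted p = 0.0960) or 2 (0.0659) or without wild-type set A replicate 3 (0.126). On TPM the calls of Suv39h1 (0.0819) and Suv39h2 (0.0631) were lost. Ehmt2 was at 0.759 of wild type in Hp1αΔ/Δ and at 0.755 in Hp1γΔ/Δ ESCs, and both values share the libraries of wild-type set A. The median log2 fold change of the 6 genes was −0.03 in Hp1αΔ/Δ and −0.09 in Hp1γΔ/Δ ESCs, beside −0.0073 and −0.01 over all genes.

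In Hp1βΔ/Δ ESCs none of the 6 genes passed edgeR's test, while 51.1% of 15845 genes did. The unadjusted p was under 0.05 for 1 of them, Ehmt2, and DESeq2 called 0. Without Hp1βΔ/Δ replicate 1, Ehmt2 passed with −0.13 (adjusted p = 0.00493). That library lay further from replicates 2 and 3 (chi-square of counts per degree of freedom 9.84 and 11.3) than these from each other (2.91). The log2 fold changes ran from −0.10 for Ehmt2 to 0.11 for Suv39h1, and their standard errors from 0.040 to 0.099. Against wild-type set B, 3 genes passed, Setdb1 (0.18, adjusted p = 0.00663), Setdb2 (0.31, 0.0199) and Suv39h2 (0.21, 0.0382). The count in this mutant thus rested on the choice of the control set and, for Ehmt2, on replicate 1.

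Double mutants kept Ehmt1 low. In Hp1α/βΔ/Δ ESCs, 4 of 6 genes fell and none rose, while 43.4% of all genes tested passed (22.1% lower and 21.3% higher). None passed the fold threshold, which 8.16% of all genes did. Ehmt1 had 124, 124 and 126 CPM, that is −0.40 on the log2 scale (standard error 0.038, adjusted p = 1.55e-07), and Suv39h1 fell by 0.38, Ehmt2 by 0.18 and Setdb1 by 0.13. The call of Setdb1 was lost without wild-type set A replicate 2 (adjusted p = 0.0784) and on TPM (0.0810). Against wild-type set B neither Setdb1 (−0.0047, adjusted p = 0.941) nor Ehmt2 (−0.08, 0.224) passed. The test of the interaction of Hp1α and Hp1β loss, passed by 45% of 16512 genes, was passed by Suv39h1 (−0.49, adjusted p = 0.000346), Setdb2 (−0.42) and Ehmt2 (0.32). For Ehmt2 the positive sign means that Hp1α/βΔ/Δ ESCs, with 199, 203 and 203 CPM, lay above the sum of the separate losses on the log2 scale, and they also lay above the Hp1αΔ/Δ ESCs. For Setdb1, the interaction of −0.12 did not pass (adjusted p = 0.0628) but did without wild-type set A replicate 2 (−0.15, adjusted p = 0.0307).

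In Hp1β/γΔ/Δ ESCs, set against wild-type set B, 4 of 6 genes passed, and 51.7% of all genes tested. None passed the fold threshold, against 11.9% of all genes. Ehmt2 had 150, 156 and 154 CPM against 199, 220 and 215 CPM (log2 fold change −0.46, standard error 0.048, adjusted p = 1.25e-06). Ehmt1 had 119, 114 and 117 CPM against 150, 159 and 158 CPM, a log2 fold change of −0.41. In neither gene did the groups overlap. Setdb1 fell by 0.13 and Suv39h2 rose by 0.20, and both calls depended on single libraries and on the fit. That of Setdb1 was lost without Hp1β/γΔ/Δ replicate 2 (adjusted p = 0.0885) or 3 (0.0679) or wild-type set B replicate 3 (0.0581). That of Suv39h2 was lost without Hp1β/γΔ/Δ replicate 1 (0.0850) or 3 (0.0725) or wild-type set B replicate 2 (0.124) or 3 (0.0887), with DESeq2 (0.0670) and on TPM (0.143), and against set A its change was −0.014. A joint fit of set B, Hp1α/γΔ/Δ and Hp1β/γΔ/Δ ESCs took in Hp1α/γΔ/Δ replicate 2, which stood apart. In that fit Setdb1 (0.418), Suv39h2 (0.173) and Ehmt1 (0.0506) did not pass, which left Ehmt2 alone. Over all genes, 4013 passed in it in place of 8408.

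Hp1α/γΔ/Δ ESCs had the lowest Suv39h1 of the 11 conditions. Its libraries held 19.3, 15.1 and 18.6 CPM, against 49.9, 47.3 and 44.95 CPM in wild-type set B. The level was 0.364 of that in wild type (log2 fold change −1.46, standard error 0.14, adjusted p = 0.000300). Ehmt1 had 95.8, 63.8 and 90.4 CPM against 150, 159 and 158 CPM, a log2 fold change of −0.93 (standard error 0.18). These were the 2 of 6 genes that passed, while 46.5% of all genes tested did, and Suv39h1 alone passed the fold threshold, with 23.1% of all genes. Replicate 2 was the lowest library for both. Without it Suv39h1 was at −1.33 and Ehmt1 at −0.74. Setdb2 (0.44, and 0.32 with it) and Ehmt2 (0.16, and 0.20 with it) then passed as well, so that 4 of 6 genes were called, with 67.1% of all genes. Without replicate 1, Ehmt1 reached −1.05 and passed the fold threshold. Summed feeder markers were at 9.52 to 11.2 CPM against 46.4 to 56.0 CPM in set B, and ESC markers at 5584 to 7976 against 3297 to 3385 CPM, and the part of this in the values was not tested.

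Suv39h1 in Hp1α/γΔ/Δ ESCs went with a high level of its antisense gene Gm14820, which was looked at after its values were seen. Gm14820 had 16.7, 28.6 and 17.4 CPM there, against 0.83, 1.34 and 0.91 CPM in wild-type set B. This was a rise of 4.28 on the log2 scale (standard error 0.28, adjusted p = 8.25e-05), and 4.03 without replicate 2. Replicate 2, which stood apart across genes, had the most Gm14820 and the least Suv39h1 of its group, and replicates 1 and 3 lay close together in both. Gm14820 was also higher than wild type in the other 6 Hp1 mutants, by log2 fold changes from 1.41 in Hp1β/γΔ/Δ to 2.44 in Hp1γΔ/Δ ESCs, each of which passed. Suv39h1 was lower in some of these and not in others. In Hp1βΔ/Δ ESCs, with 4.88 to 6.60 CPM of Gm14820 against 0.96 to 1.66 CPM in wild type, Suv39h1 had 46.8, 47.1 and 43.1 CPM and did not pass. In Setdb1F/F ESCs, which carry no Hp1 mutation, Gm14820 was at 4.52 to 4.91 CPM. A link between Gm14820 and Suv39h1 was not tested, and reads from their shared exons cannot be assigned with certainty. The deposited TPM of Suv39h1 was 4.97, 3.21 and 5.23 TPM against 21.7, 20.9 and 19.8 TPM in set B, a lower share of wild type than by counts with or without replicate 2. The median of all genes on log2(TPM + 1) was −0.29 in this comparison. The counts behind 1 TPM of Suv39h1, relative to the median of 9806 genes in the library, were 1.60 to 1.90 in Hp1α/γΔ/Δ ESCs and 1.28 in each library of set B.

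**Figure D3:**
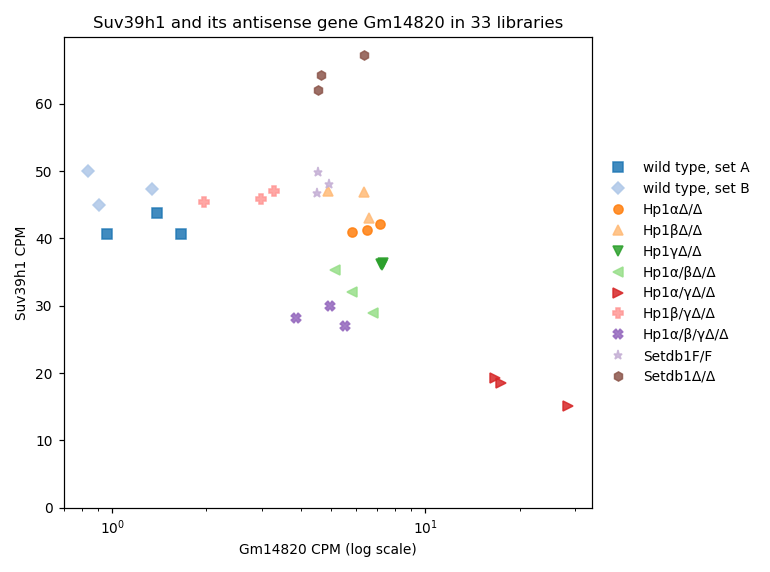
Suv39h1 (y axis, CPM, from 0) against its antisense gene Gm14820 (x axis, CPM, log scale) in 33 libraries, 1 symbol a condition. The 3 libraries of Hp1α/γΔ/Δ ESCs stand alone at 16.7 to 28.6 CPM of Gm14820 and 15.1 to 19.3 CPM of Suv39h1, and those of Hp1βΔ/Δ ESCs lie at 4.88 to 6.60 CPM of Gm14820 and 43.1 to 47.1 CPM of Suv39h1.

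Loss of Setdb1 itself gave a different pattern. In Setdb1Δ/Δ cells all 6 genes passed against Setdb1F/F ESCs, as did 78.9% of 16457 genes, with 3 lower and 3 higher (38.8% and 40.2% of all genes). At the fold threshold 3 of 6 were called, and 29.9% of all genes. The median log2 fold change of the 6 genes was −0.36, against 0.01 over all genes tested. Setdb1 had 71.9, 69.2 and 68.5 CPM against 135, 131 and 130 CPM, or 0.525 of the control (log2 fold change −0.93, standard error 0.034, adjusted p = 3.98e-14). This is a ratio of counts over the whole gene. It takes in the loss of reads from the removed exons, which hold 21.6% of the transcript, and is not the share of transcripts kept. The TPM of Setdb1 was 30.8 ± 1.23 against 38.4 ± 1.38 (SD, n = 3).

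Ehmt2 and Suv39h2 fell further than Setdb1 did. Ehmt2 had 74.4, 77.2 and 78.0 CPM in Setdb1Δ/Δ cells and 223, 217 and 225 CPM in Setdb1F/F ESCs. It was at 0.343 of the control (log2 fold change −1.54, standard error 0.030, adjusted p = 5.12e-18), and this was the lowest Ehmt2 of the 11 conditions. Suv39h2 had 11.04, 15.7 and 10.3 CPM against 47.2, 35.4 and 35.02 CPM, a log2 fold change of −1.68 (standard error 0.13). Replicate 1 of Setdb1F/F was the highest of the controls, and the groups did not overlap.

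Setdb2 rose most. It had 59.5, 51.2 and 52.9 CPM in Setdb1Δ/Δ cells and 25.1, 25.0 and 23.9 CPM in Setdb1F/F ESCs, 2.19 times the control (log2 fold change 1.13, standard error 0.061, adjusted p = 1.29e-11). Suv39h1 rose by 0.41, from 48.2 ± 1.61 to 64.5 ± 2.61 CPM (SD, n = 3), and Ehmt1 by 0.21, from 97.7 ± 2.44 to 114 ± 3.02 CPM (SD, n = 3). In TPM the median of all genes lay 0.39 higher than in counts, and there Suv39h1 was at 0.94, Ehmt1 at 0.79 and Setdb2 at 1.31 on log2(TPM + 1), while Setdb1 was at −0.31. Direction was thus the same on both scales for all 6 genes. Setdb1Δ/Δ cells had lower ESC markers in sum (4403 to 4451 against 6207 to 6235 CPM), and 17 of 18 genes of the cell cycle fell, their sum being at 5515 to 5558 against 7643 to 7681 CPM. Endoderm markers were at 6.53 to 6.98 against 8.24 to 9.46 CPM in sum, where Gata4, Gata6 and Sox17 fell and Foxa2 rose (log2 fold change 3.19), and feeder markers at 1.76 to 2.72 against 6.72 to 7.53 CPM. The part of these shifts in the methyltransferase values was not tested.

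Hp1α/β/γΔ/Δ and Setdb1Δ/Δ cells, which the study set side by side, were compared by a test of the difference of their changes over the 12 libraries, each against its own control. This comparison was added after the data were seen. All 6 genes differed between the mutants, as did 64.9% of 18569 genes. The largest difference was that of Suv39h2, which rose in one and fell in the other (difference 2.54, standard error 0.15, adjusted p = 5.43e-13). Ehmt1 (−1.86) and Suv39h1 (−1.02) also had opposite signs in the 2 mutants, both lower without HP1 and higher without Setdb1. Setdb1, Setdb2 and Ehmt2 moved in the same direction in both, and the changes were larger in Setdb1Δ/Δ cells (differences of 0.39 for Setdb1, −0.43 for Setdb2 and 0.58 for Ehmt2). The control lines also had different levels, which were not tested. Setdb1F/F ESCs had 132 ± 2.69 CPM of Setdb1 and 24.7 ± 0.72 CPM of Setdb2, where wild-type set A had 200.5 ± 7.06 and 14.0 ± 1.13 CPM (SD, n = 3).

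Both wild-type sets carry the same genotype label and give the size of a difference between control sets. Of the 6 genes, 1 passed between them, while 24.8% of 16010 genes did. This was Suv39h1, higher in set B by 0.19 (adjusted p = 0.0280). The call was lost without set B replicate 1 (0.0579) or 2 (0.0552) and without set A replicate 2 (0.106) or 3 (0.108). It was also lost with DESeq2 (0.103) and on the TPM scale (a change of 0.0025 on log2(TPM + 1)). Suv39h2 had −0.21 (adjusted p = 0.0571) and passed without set B replicate 1 (0.00300) or set A replicate 3 (0.0364), and with no filter beyond 1 count (0.0102). Setdb1 had −0.12 (0.0577) and passed without set B replicate 1 (0.0193), with DESeq2 (0.0351) and with RLE factors (0.0491). Ehmt1, at −0.07 on counts, passed on log2(TPM + 1) with −0.27 (limma, adjusted p = 0.00899). On counts the log2 fold changes between the sets ran from −0.23 for Setdb2 to 0.19 for Suv39h1, and several changes called in single and double mutants are no larger.

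In Hp1α/β/γΔ/Δ and Setdb1Δ/Δ cells the make-up of the summed TPM of the 6 genes shifted. The sum was 266 ± 3.21 TPM in wild-type set A and 232 ± 4.95 TPM in Hp1α/β/γΔ/Δ cells, and 212 ± 6.87 TPM in Setdb1F/F ESCs and 209 ± 4.32 TPM in Setdb1Δ/Δ cells (SD, n = 3). In these comparisons the median log2 fold change of all genes lay higher on TPM than on counts, by 0.28 and 0.39. The sums carry that shift and do not show that the total was kept on the count scale. Ehmt1 gave 22.4% of the sum in wild-type set A and 11.5% in Hp1α/β/γΔ/Δ cells, and Suv39h2 gave 7.41% and 21.1%. Between Setdb1F/F ESCs and Setdb1Δ/Δ cells, Ehmt2 went from 43.6% to 22.3%, Setdb2 from 6.40% to 16.7% and Suv39h1 from 9.18% to 18.3%. In Hp1β/γΔ/Δ ESCs the sum was 199 ± 5.09 TPM against 251 ± 7.95 TPM in set B (SD, n = 3), and the share of Ehmt1 was 17.8% against 19.6% and that of Setdb1 24.8% against 22.2%. Ehmt2 was first in the order of TPM in 10 of the 11 conditions. In Setdb1Δ/Δ cells Ehmt1 (49.7 ± 4.27 TPM) stood before it (46.6 ± 1.88 TPM), with libraries that overlapped, and Suv39h2 was last. In Hp1α/β/γΔ/Δ cells Suv39h2 (48.9 ± 1.85 TPM) had moved up to the third place, and Suv39h1 and Setdb2, the last in the order, overlapped.

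**Figure D4:**
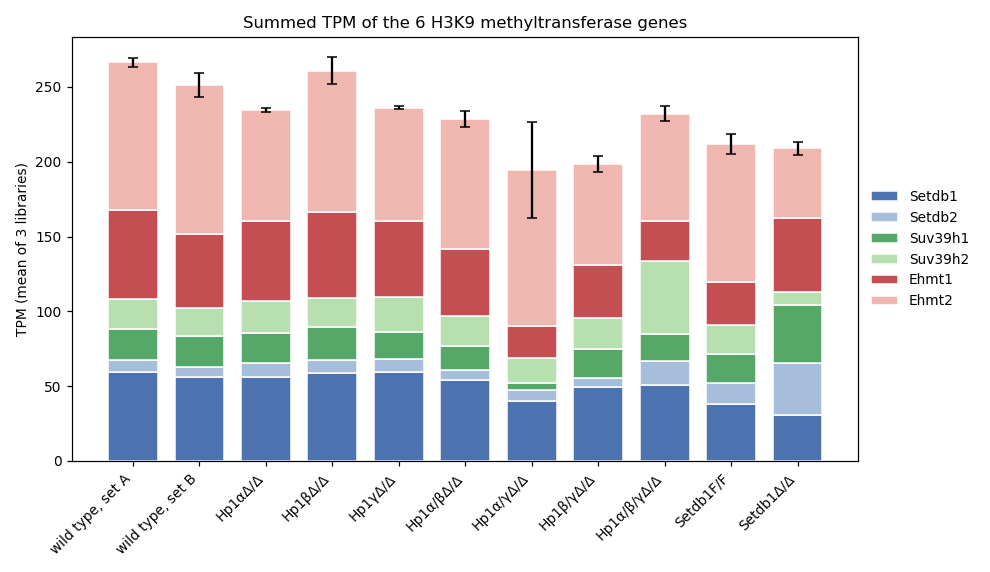
Summed TPM of the 6 H3K9 methyltransferase genes in 11 conditions (bars from 0, each colour the mean of 1 gene over 3 libraries). Black bars are the SD of the sum over 3 libraries, which is widest in Hp1α/γΔ/Δ ESCs. The Suv39h2 segment is largest in Hp1α/β/γΔ/Δ cells and smallest in Setdb1Δ/Δ cells.

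Across the 11 condition means of log2 CPM, given as a description, Setdb1 and Setdb2 had a Pearson r of −0.91. Setdb1Δ/Δ cells, where Setdb1 is the deleted gene, Setdb1F/F ESCs and Hp1α/β/γΔ/Δ cells had the lowest Setdb1 and the highest Setdb2. Among the remaining conditions no general inverse order was seen. Hp1β/γΔ/Δ ESCs had the least of both mRNAs there, and Hp1βΔ/Δ ESCs, with the most Setdb1, lay mid-range for Setdb2. Hp1α/γΔ/Δ ESCs had a low mean of Setdb1 and a high mean of Setdb2 among these. That low mean of Setdb1 rested on replicate 2 (186, 143 and 183 CPM in replicates 1 to 3). Setdb1 and Ehmt2 went together (r = 0.78), as did, less closely, Setdb1 and Suv39h2 (r = 0.73), and Ehmt1 and Ehmt2 had r = 0.30. Each point is a mean of 3 libraries, and all 33 libraries were scaled together. Among 11840 genes with at least 10 CPM in a condition, the pattern most like that of Setdb1 was that of Ppp2r5b (r = 0.98) and then Plac8 (0.98). For Setdb2 these were Dr1 (0.99) and Tex11 (0.98), and for Suv39h1 Tram2 (0.93) and Zfp871 (0.92). For Suv39h2 they were Zcchc18 and Pip4p1 (both 0.96), for Ehmt1 Mapk8 (0.97) and Wdr86 (0.95), and for Ehmt2 Fah (0.98) and Palm3 (0.96).

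The other 28 genes of the H3K9 methylation pathway, listed as partners of the methyltransferases, readers, PR domain methyltransferases and demethylases, moved in both directions as well. The list includes the targeted Cbx genes. In Hp1α/β/γΔ/Δ cells 9 rose and 17 fell of the 28 tested, beside 41.7% and 39.9% of all genes, and the median was −0.31 against 0.03 over all genes. Beside Cbx1 and Cbx3, the largest fall was that of Kdm4a, an H3K9 and H3K36 demethylase, from 128 ± 3.12 to 46.2 ± 2.28 CPM (log2 fold change −1.50). The largest rises were those of its relative Kdm4d, with 3.13, 3.87 and 4.09 CPM where wild-type set A had 0, 0.092 and 0.24 CPM (log2 fold change 4.98), of Mecom (2.79), which encodes a PR domain protein, and of Prdm16 (1.71). Kdm4d rests on 0 to 5 counts per wild-type library, and its fold change is correspondingly loose.

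In Setdb1Δ/Δ cells 16 of the 28 rose and 12 fell, beside 40.2% and 38.8% of all genes, with a median of 0.35 against 0.01 over all genes. Kdm4d (3.59) and Mecom (1.66) rose there too. Atf7ip, the partner that stabilises SETDB1 in the nucleus, had 332, 318 and 328 CPM against 84.5, 84.4 and 88.1 CPM, a rise of 1.92 on the log2 scale (standard error 0.029, adjusted p = 2.00e-19). No gene of the list fell past the fold threshold in these cells. In Hp1α/γΔ/Δ ESCs 4 rose and 5 fell of the 26 tested, while 20.2% of all genes rose and 26.3% fell. Without replicate 2, 9 rose and 8 fell, with 32.4% and 34.7% of all genes. Wiz, a partner of the EHMT1 and EHMT2 heterodimer, had 252, 179 and 237 CPM against 467, 447 and 445 CPM in wild-type set B (log2 fold change −1.06), and without replicate 2 its −0.89 was under the fold threshold. Kdm7a, a demethylase of H3K9 and H3K27, was at −1.55, and at −1.22 without replicate 2. Kdm7a also fell past the fold threshold in Hp1βΔ/Δ ESCs, by 1.30 on the log2 scale. In the Hp1αΔ/Δ, Hp1γΔ/Δ, Hp1α/βΔ/Δ and Hp1β/γΔ/Δ ESCs the genes of the list that were called at that threshold were targeted Cbx genes alone.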

How the data were processed

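RNA-seq libraries of 11 conditions, 3 each, were used. The authors deposited, in 8 tables, estimated counts and TPM per gene. The submitters' processing notes list TopHat2 2.1.1, RSEM and edgeR with GRCm38.p5, without their roles. The deposited expected counts (12.86% not whole) were rounded, and the 30 columns repeated between tables were identical. The authors' fold changes, p-values and 16 pooled TPM columns were not used.

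In R 4.3.3, genes were filtered with filterByExpr (minimum count 10), scaled by TMM and tested with edgeR 4.0.16 (quasi-likelihood F test, Benjamini-Hochberg over all genes tested), fitting only the groups compared. Changed means an adjusted p under 0.05, and deregulated also an absolute log2 fold change over 1. CPM were scaled over all 33 libraries together. Alternatives were RLE factors, no filter beyond 1 count, DESeq2 1.42.0, a joint fit, the other wild-type set as control, a replicate block and leaving out each library. The joint fit held a wild-type set and all mutants paired with it. limma 3.58.1 on log2(TPM + 1) and the comparison of the Hp1α/β/γΔ/Δ with the Setdb1Δ/Δ changes were added after seeing the data. The script was tested on simulated data. The members and gene lists were chosen with earlier results of these data known. Pathway genes were named where deregulated, up to 3 in each direction by size of change, and Gm14820 after its values were seen.

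Positions come from GENCODE M21 (GRCm38), which matched 55141 of 55487 gene IDs, and promoters from RefSeq (GRCm38.p6). The YY1-type motif was shortened to AAGATGG after matches had been seen. Total counts ran from 17330992 to 25743193 per library (median 21522605), and precision is given as the standard error or the SD over 3 libraries.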

Additional observations from a re-analysis of the deposited data

Results flagged for a closer look

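A test of the difference between effects was passed by 14 of 18 tests of the 6 genes (edgeR's quasi-likelihood test, adjusted over all genes tested). The effect of Hp1α loss differed with and without Hp1β for Suv39h1 (−0.49), Setdb2 (−0.42) and Ehmt2 (0.32). The effect of Hp1γ loss differed with and without Hp1α and Hp1β for Ehmt1 (−0.93), Setdb2 (0.83), Suv39h2 (0.60), Setdb1 (−0.41) and Ehmt2 (−0.35). The change in Hp1α/β/γΔ/Δ cells minus that in Setdb1Δ/Δ cells was 2.54 for Suv39h2, −1.86 for Ehmt1, −1.02 for Suv39h1, 0.58 for Ehmt2, −0.43 for Setdb2 and 0.39 for Setdb1. All values are on the log2 scale of counts. In the test of Hp1γ loss, the time since that loss and Cre transfection cannot be told apart from the presence of Hp1α and Hp1β. Of all genes tested, 45%, 69.9% and 64.9% passed these tests.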

How the results depend on the processing

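Of 1038 values of the 6 genes under alternatives, 940 kept their direction and side of the threshold, 32 that passed in neither setting changed sign, 39 lost the call, 23 gained one and 4 turned with a call in 1 of the settings, and the cause was not tested. Those that turned were Suv39h2 in Hp1βΔ/Δ ESCs (0.21 against set B), Suv39h1 (0.15) and Suv39h2 (−0.014) in Hp1β/γΔ/Δ ESCs against set A, and Suv39h1 in Hp1α/β/γΔ/Δ against Hp1α/βΔ/Δ cells on TPM (0.15). The number of the 6 genes changed went from 3 to 1 in Hp1αΔ/Δ and from 4 to 2 in Hp1γΔ/Δ ESCs on TPM, from 0 to 3 in Hp1βΔ/Δ ESCs with the other wild-type set, and in the joint fit from 2 to 4 in Hp1α/γΔ/Δ and from 4 to 1 in Hp1β/γΔ/Δ ESCs. The number deregulated went from 1 to 2 on TPM in Hp1α/γΔ/Δ ESCs and in both comparisons of Hp1α/β/γΔ/Δ cells, in the one with wild type also with set B as control. Between the wild-type sets the count went from 1 to 2 with RLE factors and with no filter.

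Leaving out 1 library at a time gave 2 to 3 changed genes in Hp1αΔ/Δ, 0 to 1 in Hp1βΔ/Δ, 3 to 4 in Hp1γΔ/Δ, 3 to 4 in Hp1α/βΔ/Δ, 2 to 4 in Hp1α/γΔ/Δ (deregulated 1 to 2), 2 to 4 in Hp1β/γΔ/Δ, 5 to 6 in Hp1α/β/γΔ/Δ against Hp1α/βΔ/Δ, 0 to 2 between wild-type sets and 3 to 4 for the interaction of Hp1α and Hp1β loss. The counts for Hp1α/β/γΔ/Δ against set A (6) and Setdb1Δ/Δ cells (6) did not move.

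Same-numbered libraries did not deviate together (correlations −0.038 to 0.037), so the numbers were not taken as pairs. The replicate block moved 1 count, from 1 to 2 between the wild-type sets (Suv39h2, −0.21, adjusted p = 0.0338), and changed no other call of the 6 genes.

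Over all genes, TPM gave 3973 changed genes in place of 7126 in Hp1αΔ/Δ, 4257 in place of 7396 in Hp1γΔ/Δ, 4052 in place of 6880 in Hp1α/βΔ/Δ ESCs and 2491 in place of 3970 between wild-type sets, and the joint fit gave 4013 in place of 8408 in Hp1β/γΔ/Δ ESCs. Deregulated genes on TPM were 225 in place of 771 in Hp1αΔ/Δ (1438 with set B), 459 of 1442 in Hp1βΔ/Δ (2428), 223 of 885 in Hp1γΔ/Δ (1692), 480 of 1293 in Hp1α/βΔ/Δ, 2341 of 3656 in Hp1α/γΔ/Δ, 895 of 1929 in Hp1β/γΔ/Δ ESCs and 533 of 909 between wild-type sets.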
